A study of Mus musculus with 2 samples.

Results

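Osteoblasts, the cells that lay down bone, made up 548 of the 20654 barcodes in 2 single-cell libraries, and they were compared by how much of a fluorescent lineage reporter they carried. A barcode counted as an osteoblast when it had at least 500 genes, at least 1000 UMIs (unique molecular identifiers, counts of single mRNA molecules) and under 10% mitochondrial UMIs, with the osteocalcin genes Bglap, Bglap2 and Bglap3 together at 20 or more per 10000 UMIs, at least 3 Ibsp UMIs, Cxcl12 under 30 per 10000 UMIs and no Ptprc UMI. Cells with at least 3 Dmp1 UMIs and at least 2 UMIs of Mepe, Phex and Sost were set apart as osteocyte-like cells. The rule found 318 osteoblasts in the pulse library (3.39% of 9390 cells that passed the filters, 95% counting interval 3.03% to 3.77%) and 230 in the chase library (2.72% of 8445, 2.39% to 3.09%). Each library was split at 5 tdTomato UMIs per 10000, which gave 87 reporter-high and 231 reporter-low osteoblasts in the pulse library and 124 and 106 in the chase library. The cells were chosen by measured levels of these genes and split by measured tdTomato, so their levels are given below as a description.

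The male mice carried Adipoq-CreERT2, a tamoxifen-activated recombinase under the control of the adiponectin gene, and Ai9, a tdTomato cassette in the Rosa26 locus that is transcribed once the recombinase has cut out a stop signal. Tamoxifen was given by gavage at 8 weeks of age for 3 days, and bones were harvested 24 h (pulse) or 4 weeks (chase) afterwards; the chase mice were therefore older as well. All mice carried both alleles and received tamoxifen; the labels name 4 mice for the whole series, and do not say how many were pooled into a library. Cells were freed by digesting femur and tibia pieces after the marrow had been flushed, and bright tdTomato cells were sorted, 0.01% of the total in the pulse and 0.29% in the chase sample. The sort took bright cells, so every share below is a share of sorted cells and can be set by the gate. There was 1 library per time point, so no difference below has a replicate check, and all intervals cover counting error only.

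Osteoblasts arise from marrow stromal progenitors, secrete type I collagen and the proteins that let it mineralise, and end as lining cells, as osteocytes buried in the matrix, or by dying. CAR cells (CXCL12-abundant reticular cells) are marrow stromal cells that transcribe Adipoq, Lepr and Kitl and support blood formation. Because recombination is permanent, a cell that descends from a recombined CAR cell keeps the reporter after Adipoq is turned off. The purpose of the harvest at 2 times is to see which cells carry the label early and which carry it later.

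The osteocalcin gene carries most weight in the rule, and its promoter is printed as an example. The stretch from 250 bases before to 50 bases after the start of Bglap (chr3:88384417-88384716, minus strand, GRCm38.p6, RefSeq) is printed 5′ to 3′, with the match to ACCACA, the core letters bound by the osteoblast transcription factor RUNX2, in capitals:
Bglap: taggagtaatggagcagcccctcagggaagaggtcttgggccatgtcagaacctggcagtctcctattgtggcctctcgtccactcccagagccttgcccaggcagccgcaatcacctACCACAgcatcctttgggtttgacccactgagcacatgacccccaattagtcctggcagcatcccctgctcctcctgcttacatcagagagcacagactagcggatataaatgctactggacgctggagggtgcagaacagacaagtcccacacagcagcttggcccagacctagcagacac
The Bglap window holds 1 match on either strand (ACCACA or TGTGGT), as do 16.8% of 32851 promoters of the same length at least once, so the match is a description and not a site. The windows of Ibsp and Bglap3, which the rule also uses, held 0 matches.

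Summed over all members the markers were those of osteoblasts, and a part of the cells went against the name. Col1a1, the main collagen chain of bone, which the rule did not use, stood at 108452 CPM (UMIs scaled to 1000000 UMIs of the group) in pulse and 106682 in chase osteoblasts, against 2082 and 1770 CPM in CAR cells (Cxcl12 at 30 or more per 10000 UMIs, Ptprc at 0). Smpd3, a sphingomyelinase needed for bone mineralisation, stood at 771 and 902 CPM in osteoblasts and at 14.4 and 15.2 CPM in CAR cells. Bglap itself was at 81250 CPM in pulse and 71426 CPM in chase osteoblasts. Adipoq, whose promoter drives the recombinase, was at 22.4 and 12.8 CPM in pulse reporter-high and reporter-low osteoblasts and at 16.1 and 15.8 CPM in the chase, where CAR cells had 1717 and 1820 CPM and blood cells (at least 2 Ptprc UMIs and at most 1 UMI each of Cxcl12, Ibsp and Col1a1), which should lack it, 21.9 and 17.0 CPM. As CPM, Adipoq in osteoblasts was thus near the level of the blood cells on both sides. A UMI of it was found in 18.9% of pulse and 20% of chase osteoblasts, against 8.61% and 10.2% of blood cells, which were shallower. Cell by cell, Col1a1 was under 100 per 10000 UMIs, a limit chosen after the data were seen, in 26 of 87 reporter-high and 11 of 231 reporter-low osteoblasts of the pulse and in 11 of 124 and 9 of 106 of the chase. The medians of these 4 sides, in that order, were 971, 1079, 1084 and 970.0 per 10000. Among members with osteocalcin at 200 or more per 10000 it was under 100 in 0 of 244 pulse and 2 of 181 chase cells. In the cells under 100, Col1a1 does not bear out the name of osteoblast.

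The libraries held 10608 and 10046 barcodes with a median of 7067.5 and 6592 UMIs, and osteoblasts were deeper than most cells, with medians of 20814 and 17815 UMIs. Pulse reporter-high osteoblasts were the shallowest side (median 14514 UMIs, against 21533 on the reporter-low side), while the chase sides were alike (17766 and 17870). The 2 libraries shared 52 barcodes, of which 1 was a pulse osteoblast and 0 were chase osteoblasts. Scrublet, a doublet caller, marked 178 pulse and 110 chase cells (1.90% and 1.30%) and 0 osteoblasts.

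Osteoblasts carried little reporter at the pulse and split into a dim and a bright group at the chase. In the pulse library tdTomato ran from 0 to 53.7 per 10000 UMIs with a median of 3.66, and 90% of the cells were below 9.65. In the chase library it ran from 0 to 102 with a median of 9.80, and 91 of 230 osteoblasts (39.6%, 33.2% to 46.2%) were at 20 or more, against 12 of 318 (3.77%, 1.96% to 6.50%) in the pulse. The typical CAR cell was at 22.6 in the pulse and 20.3 in the chase library. A bright group of that size was not seen in the pulse.

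**Figure D1:**
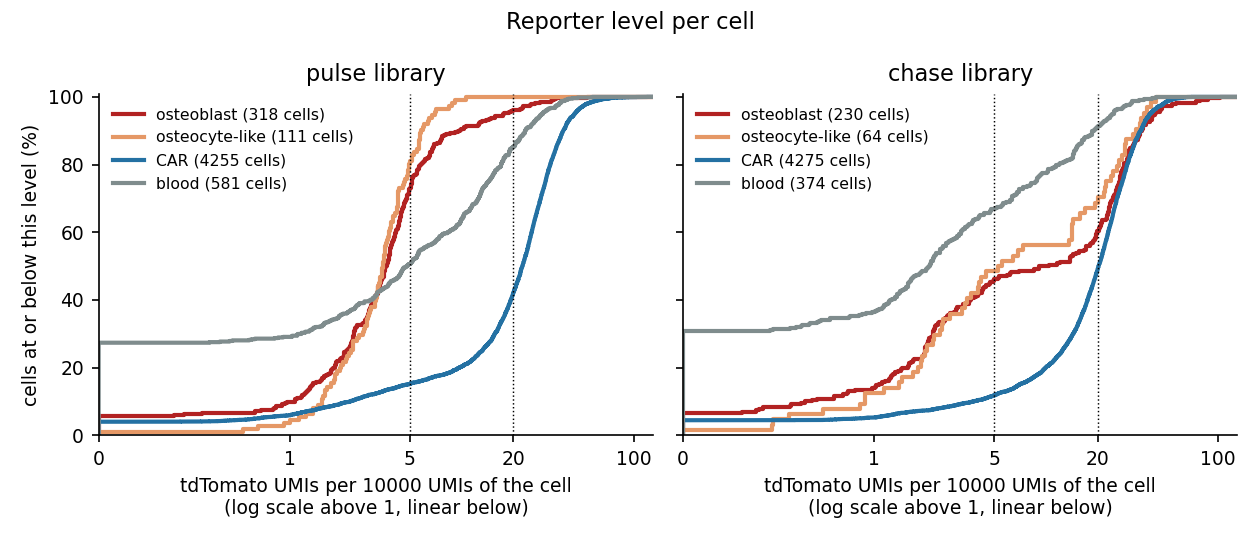
Cumulative share of cells (y axis, percent) at or below a tdTomato level (x axis, UMIs per 10000, log scale above 1) for osteoblasts, osteocyte-like, CAR and blood cells, one panel per library; dotted lines mark 5 and 20. The osteoblast curve is almost complete at 20 in the pulse panel, and in the chase panel it flattens between 5 and 20 and rises again above 20.

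The split at 5 per 10000 divided different things in the libraries. In the pulse, reporter-high osteoblasts had a median of 7.17 and reporter-low ones 2.88; 47 cells lay between 4 and 5 and 26 between 5 and 6, the nearest values on either side were 4.94 and 5.00, and the counting interval of the cell's own tdTomato UMIs lay above the split in only 27 of the 87 reporter-high cells. In the chase the medians were 26 and 1.91, the nearest values 4.96 and 5.26, with 11 and 3 cells in those ranges, and the interval lay above the split in 113 of 124 cells. Of all members, 18 pulse and 15 chase osteoblasts had no tdTomato UMI.

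Blood cells, which do not express Adipoq, were set beside the osteoblasts as a comparison for reporter from free RNA. They were at or above 5 per 10000 in 49.4% of pulse and 33.2% of chase cells (median depths 3032 and 4700.5 UMIs), and osteoblasts in 27.4% (22.5% to 32.6%) and 53.9% (47.2% to 60.5%). At 20 or more they stood at 14.8% and 8.82%, against 3.77% and 39.6% of osteoblasts. Osteoblasts were the deeper cells, so the shares were also taken with every cell thinned to 2000 UMIs. At that depth any tdTomato UMI puts a cell at 5 or more per 10000. The thinned share at 5 is therefore that of cells with any tdTomato UMI, and is not like the share before thinning. At 5 or more the shares were then 53.8% (48.1% to 59.4%) of pulse osteoblasts and 58.4% (53.9% to 62.8%) of pulse blood cells, intervals that overlap. In the chase they were 67.4% and 43.6%. At 20 or more they were 6.37% of pulse and 40.1% of chase osteoblasts, against 17.2% and 11.9% of blood cells. After thinning, the pulse share of osteoblasts was thus near that of blood cells at 5 and below it at 20. The chase share was above that of blood cells at both limits. Thinning keeps the tdTomato fraction of each cell on average, so it does not level free RNA between cells of unlike depth. Within pulse blood cells the median depth was 4990 UMIs under 5, 2682 at 5 to under 20 and 2297 at 20 or more. The blood share is thus no measured background for osteoblasts, and the part of free RNA was not tested.

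Osteocyte-like cells, the next stage of the lineage, followed the same course. None of 111 pulse osteocyte-like cells was at 20 or more (upper bound of the exact interval 3.27%), against 20 of 64 (31.2%, 20.2% to 44.1%) in the chase. Their highest value was 10.6 in the pulse and 44.0 in the chase.

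The few bright cells of the pulse had low osteocalcin, and in most of them Col1a1 went against the name of osteoblast. Members were divided at 50 and 200 osteocalcin UMIs per 10000, limits chosen after the data were seen. Of 244 pulse osteoblasts at 200 or more, 56 (23.0%, 17.8% to 28.7%) were reporter-high and 0 reached 20, with a highest value of 14.8. Of 181 such chase osteoblasts, 98 (54.1%, 46.6% to 61.6%) were reporter-high and 75 (41.4%, 34.2% to 49.0%) reached 20. All 12 pulse cells at 20 or more had osteocalcin under 200: 9 of them were among the 52 cells at 20 to under 50 and 3 among the 22 cells at 50 to under 200. In the chase, 9 of 22 and 7 of 27 cells of these ranges were that bright. Col1a1 was between 4.19 and 66.5 per 10000 in 11 of the 12 bright pulse cells and at 1934 in the other one, with a median of 24.1, against 3.13 in pulse CAR cells. The 9 bright cells at 20 to under 50 had Col1a1 at 2890 CPM, Smpd3 at 0 and the 26 CAR genes at 11755 CPM. In the 91 bright chase cells Col1a1 had a median of 1125 per 10000 and was under 100 in 5.

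**Figure D2:**
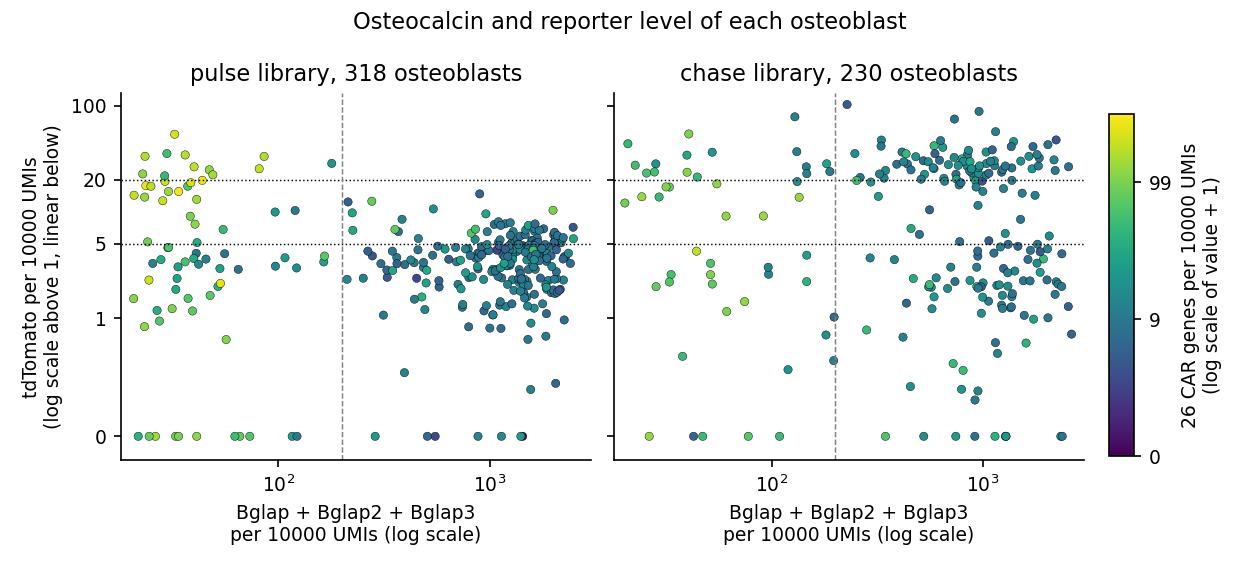
Each point is an osteoblast, placed by osteocalcin (x axis, summed UMIs of the 3 genes per 10000, log scale) and tdTomato (y axis, per 10000, log scale above 1) and coloured by the summed level of 26 CAR genes; dotted lines mark tdTomato 5 and 20 and the dashed line osteocalcin 200. The upper right area holds 0 pulse cells and 75 chase cells, and the bright pulse cells sit at the left with high CAR gene levels.

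The low-osteocalcin cells were a different kind of member. In the pulse, cells at 20 to under 50 had Spp1 (osteopontin, a phosphoprotein of bone matrix) at 36184 CPM against 812 CPM in cells at 200 or more, and Mmp13, a collagenase, at 3210 against 39.6 CPM. Alpl, the phosphatase of early osteoblasts, was at 1103 against 441 CPM. Col1a1 was at 25488 against 117407 CPM and Smpd3 at 204 against 831 CPM. The 26 CAR genes were at 8629 against 1113 CPM. The chase values ran the same way, with Spp1 at 35461 against 937 CPM, Mmp13 at 4699 against 23.4 CPM and the CAR genes at 6238 against 1376 CPM. The low-osteocalcin members thus had less collagen and more Spp1, Mmp13 and CAR RNA in both libraries, so the comparisons of sides below are also given for cells at 200 or more.

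The transcript of the Rosa26 locus itself was lower in bright than in dim chase osteoblasts. Gt(ROSA)26Sor is the noncoding RNA of the locus that holds the Ai9 cassette (chr6:113067428-113077333, minus strand, GRCm38, GENCODE vM21), and it was picked out after its values were seen. In chase osteoblasts it was at 45.0 CPM (91 UMIs) below 5 tdTomato per 10000, 35.1 CPM (17 UMIs) at 5 to under 20 and 19.4 CPM (34 UMIs) at 20 or more. The ratio of the brightest to the dimmest band was 0.43 (0.28 to 0.65), and 0.41 (0.27 to 0.63) among cells of osteocalcin 200 or more. In pulse osteoblasts the first 2 bands were at 47.0 and 44.8 CPM, with intervals that overlapped, and the brightest band had only 5 UMIs.

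The same comparison gave a ratio below 1 in CAR cells of both libraries, 0.72 (0.62 to 0.84) in the pulse and 0.74 (0.60 to 0.91) in the chase. In chase osteocyte-like cells it was 0.64, with an interval of 0.26 to 1.46 from 9 and 21 UMIs. In blood cells it was 1.15 (0.59 to 2.06) and 1.13 (0.36 to 2.75). Setd5, the next gene on the other strand, had a ratio of 0.95 (0.71 to 1.26) in chase osteoblasts and of 1.20 (1.09 to 1.32) and 1.17 (1.03 to 1.32) in CAR cells. In blood cells Setd5 was at 1.86 and 2.19. In chase osteoblasts and in CAR cells the whole interval of the ratio thus lay below 1 for the Rosa26 transcript and not for its neighbour. In pulse osteoblasts Setd5 was at 37.1 CPM (27.4 to 49.2) at 5 to under 20 tdTomato and at 51.3 CPM (45.1 to 58.1) under 5. The values at osteocalcin 200 or more were 26.9 CPM (18.2 to 38.1) and 47.4 CPM (41.2 to 54.4), intervals that do not overlap, while Gt(ROSA)26Sor was at 47.6 and 46.8 CPM. In pulse cells at that osteocalcin limit the bands of the neighbour were thus apart and those of the Rosa26 transcript overlapped. Over all pulse osteoblasts these 2 bands overlapped for both genes. Gt(ROSA)26Sor overlaps the 3′ end of Thumpd3 on the other strand, and the sources do not say whether counting used strand.

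**Figure D3:**
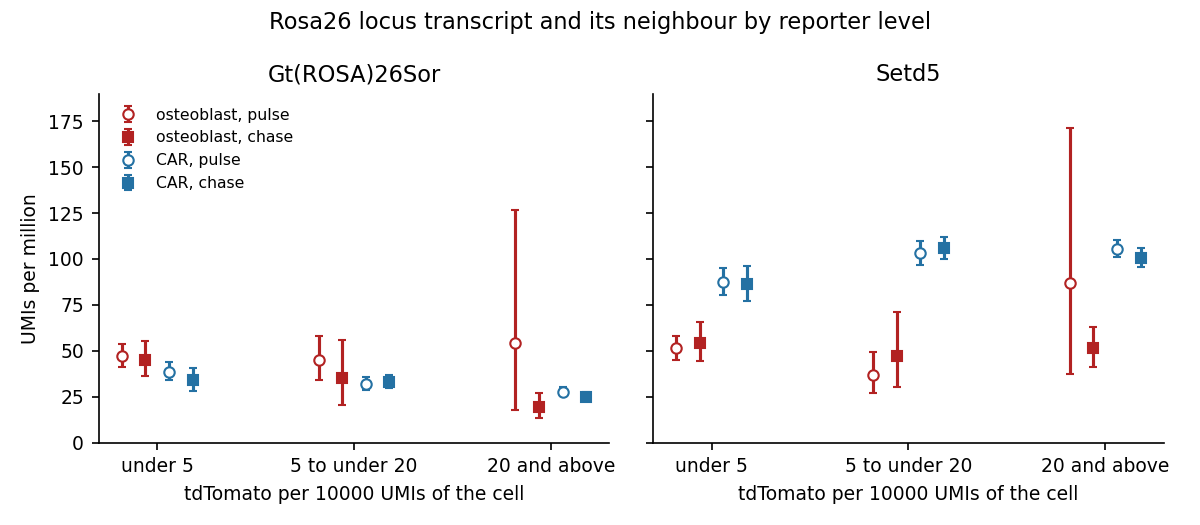
CPM of Gt(ROSA)26Sor (left) and Setd5 (right) in 3 bands of tdTomato per 10000 UMIs, for osteoblasts and CAR cells of both libraries; bars are 95% Poisson counting intervals. The chase osteoblast points of Gt(ROSA)26Sor run from 45.0 to 19.4 CPM, and those of Setd5 stay between 47.5 and 54.3 CPM.

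In the chase library the bright and dim sides differed little in most bone genes. A gene counted as higher or lower when its summed level differed by at least 1.5-fold with the counting interval excluding 1, among genes with at least 100 UMIs over both sides. Of 3719 genes, 57 were higher (1.53%) and 67 lower (1.8%) on the reporter-high side, and 96.7% lay within 1.5-fold. Col1a1 was at 110031 CPM on the high and 102982 CPM on the low side, Smpd3 at 922 and 881 CPM, and Sparc, a collagen-binding matrix protein, at 43922 and 39324 CPM. Runx2 stood at 169 and 162 CPM and Sp7, the transcription factor that follows it, at 144 and 125 CPM. Pth1r, the parathyroid hormone receptor, was at 385 and 414 CPM.

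Lists of bone and housekeeping genes had few members past the limit, and some others had more. In the chase, 0 of 18 bone matrix proteins measured were higher and 1 lower (median log2 ratio 0.07, against 0.01 over all genes). None of 13 osteogenic transcription factors, 24 secretory pathway genes, 12 mineralisation genes or 27 oxidative phosphorylation genes passed the limit in either direction; their medians were 0.05, -0.01, -0.10 and 0.01. Of 11 Wnt pathway genes 0 and of 14 BMP and TGF-beta genes 1 (lower) passed. Of 10 osteocyte genes 2 were lower, Cd109 and Tnfrsf11b, the decoy receptor osteoprotegerin (median -0.31). Of 11 glucocorticoid-responsive genes 3 were lower, Mt1, Mt2 and Lcn2, and 1 higher, the clock gene Per1 (median 0.02). Neutrophil markers also differed between the chase sides, with 5 of 8 lower, 2 higher and a median of -0.82; they summed to 717 CPM on the high and 1430 CPM on the low side. Their direction turned at osteocalcin 200 or more, with 6 of 6 higher and a median of 2.06. The part of this RNA in the other differences between the chase sides was not tested.

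A small set of genes was lower in bright chase osteoblasts. Loxl2, a lysyl oxidase that cross-links collagen, was at 265 CPM on the high and 537 CPM on the low side (ratio 0.49, 0.45 to 0.55), with 50.8% and 71.7% of cells holding a UMI. The metallothioneins Mt1 and Mt2, which bind zinc, were at 522 against 987 CPM (0.53, 0.49 to 0.57) and 102 against 306 CPM (0.33, 0.29 to 0.39). Basp1, a membrane-attached signalling protein, was at 17.9 against 63.2 CPM (0.28, 0.19 to 0.41), and no cell gave more of the UMIs of any of these on a chase side than the 17.4% that 1 cell gave of Mt2 on the low side. Between the pulse sides the same genes were level or slightly above on the high side: Loxl2 at 654 and 626 CPM, Mt1 at 1924 and 1424, Mt2 at 446 and 360, Basp1 at 116 and 99.9. The 12 pulse cells at 20 or more tdTomato ran the other way, with ratios to cells under 5 of 0.23 (0.12 to 0.39) for Loxl2, 0.17 (0.11 to 0.25) for Mt1, 0.090 (0.019 to 0.26) for Mt2 and 0.43 (0.12 to 1.12) for Basp1, from 13, 22, 3 and 4 UMIs; these are the cells of low Col1a1. At osteocalcin 200 or more, where no pulse cell was that bright, cells at 5 to under 20 had Loxl2 at 758 against 686 CPM and Mt2 at 529 against 396 CPM under 5.

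The difference was present in mature members and in osteocyte-like cells. Among chase osteoblasts of osteocalcin 200 or more, the ratio of cells at 20 or more to cells under 5 was 0.50 (0.44 to 0.55) for Loxl2, 0.52 (0.48 to 0.56) for Mt1, 0.31 (0.26 to 0.37) for Mt2 and 0.16 (0.088 to 0.26) for Basp1. Chase osteocyte-like cells, which are no members, gave 0.56 (0.42 to 0.74), 0.26 (0.20 to 0.32) and 0.29 (0.19 to 0.43) for Loxl2, Mt1 and Mt2, and 0.56 with an interval of 0.23 to 1.25 for Basp1. In chase CAR cells the metallothioneins ran the other way, at ratios of 1.34 (1.30 to 1.38) and 1.33 (1.26 to 1.40), and Loxl2 was at 0.92 (0.82 to 1.03). With the split at 2 per 10000 the reporter-high to reporter-low ratio in chase osteoblasts was 0.96 for Loxl2 and 0.95 for Basp1, against 0.48 for Mt1, and with cells thinned to 2000 UMIs it was 0.97 for Basp1. Which bones or mice the bright and dim cells came from cannot be told from these files.

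Others were less even over cells. Postn (periostin) was at 85.4 against 165 CPM (0.52, 0.43 to 0.62), with 25% of the low side's UMIs from 1 cell, and at osteocalcin 200 or more its ratio was 0.88 (0.61 to 1.3). Cd109, a surface protein of the osteocyte list, was at 23.7 against 40.5 CPM (0.58, 0.41 to 0.84), with 38% of the high side's UMIs from 1 cell. In chase osteocyte-like cells Cd109 ran the other way, with a ratio of cells at 20 or more to cells under 5 of 2.62 (1.71 to 4.06). Fabp4, a lipid-binding protein of adipocytes and capillaries, was at 78.7 against 43.0 CPM, but 1 cell gave 60% of its UMIs on the high and 71% on the low side.

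In the pulse library the reporter-high side had more CAR RNA, and other genes were higher with it. Of 4787 genes, 235 were higher (4.91%) and 64 lower (1.34%), and 92.9% lay within 1.5-fold. Col1a1 was at 99773 CPM on the high and 110929 CPM on the low side, Smpd3 at 704 and 790, Runx2 at 135 and 143, and Sp7 at 132 and 170 CPM. Of 18 CAR and adipogenic markers measured, 14 were higher and 0 lower, with a median log2 ratio of 1.27, against 0.06 over all genes; Cxcl12, capped by the rule, is among the 14. In the chase library 0 of 16 were higher and 2 lower, with a median of 0.00. Of 9 genes of the IGF axis 5 were higher in the pulse, Igf1, Igfbp4, Igfbp5, Igfbp7 and Ghr (median 0.79; Igfbp4 and Igfbp5 are also CAR markers here), and of 17 matrix degradation genes 5 (median 0.23). Of 21 bone matrix proteins 3 were higher and 1 lower (median -0.11).

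Apoe, a lipid carrier, was at 803 CPM on the high and 185 CPM on the low pulse side (ratio 4.34, 3.97 to 4.74). Gas6, a ligand of the TAM receptors, was at 202 against 50.5 CPM (4.00, 3.36 to 4.77) and in the chase at 38.5 against 58.3 CPM (0.66, 0.49 to 0.88). Igfbp4, which holds insulin-like growth factors, was at 424 against 123 CPM (3.45, 3.07 to 3.87). The leptin receptor Lepr was at 44.8 against 16.7 CPM (2.68, 1.89 to 3.78). Genes outside the list shared the pattern: the potassium channel Kcnk2 was at 199 against 35.7 CPM (5.59, 4.60 to 6.80), Loxl1 at 96.0 against 24.3 CPM (3.95, 3.06 to 5.10), and Mmp13 at 630 against 266 CPM (2.37, 2.17 to 2.58). For Mmp13 1 cell gave 26% of the high side's and 31% of the low side's UMIs. With the split at 2 per 10000 the pulse ratios were 0.84 for Gas6, 0.83 for Igfbp4, 0.93 for Lepr, 0.77 for Kcnk2, 0.59 for Loxl1 and 0.41 for Mmp13.

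This CAR RNA sat in a minority of cells. The 26 CAR genes other than Cxcl12 summed to a median of 12 per 10000 UMIs in pulse reporter-high and 9.61 in reporter-low osteoblasts, against 411 in pulse CAR cells. Above 75.3, the 95th percentile of the reporter-low side, lay 25 of 87 reporter-high cells, and 10 cells held 43.5% of that side's UMIs of these genes. Of the 12 cells at 20 or more tdTomato, 9 were above it, with a median of 149. In the chase library the median was 12.3 in reporter-high and 13.1 in reporter-low osteoblasts, and in the 91 bright cells it was 11.9, with 2 above the matching percentile of 77.3. The CAR genes of bright chase osteoblasts were thus near those of dim ones. Of the 12 bright pulse cells, 9 were above the 95th percentile of the reporter-low side and 3 were not. Their median was below that of CAR cells, and their highest value, 218, was below the 238 of the highest reporter-low cell.

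The pulse difference hung on where the line was drawn. With the split at 2 per 10000, 0 CAR markers were higher and their median log2 ratio was -0.18; the 18 pulse cells without a tdTomato UMI had a median depth of 7190.5 UMIs and CAR genes at 6154.5 CPM, against 1367 CPM in the cells above 0 and under 5. Without members that held an Adipoq UMI or Cxcl12 at 5 or more per 10000, 5 were higher and the median was 0.31. At osteocalcin 200 or more, 68 genes were higher (1.66%) and 85 lower (2.07%) of 4097, and 10 of 15 CAR markers were higher (median 0.85). In the chase library at 200 or more, 58 were higher (1.83%) and 53 lower (1.67%) of 3171, with 0 of 14 CAR markers higher and 4 lower (median -0.19).

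**Figure D4:**
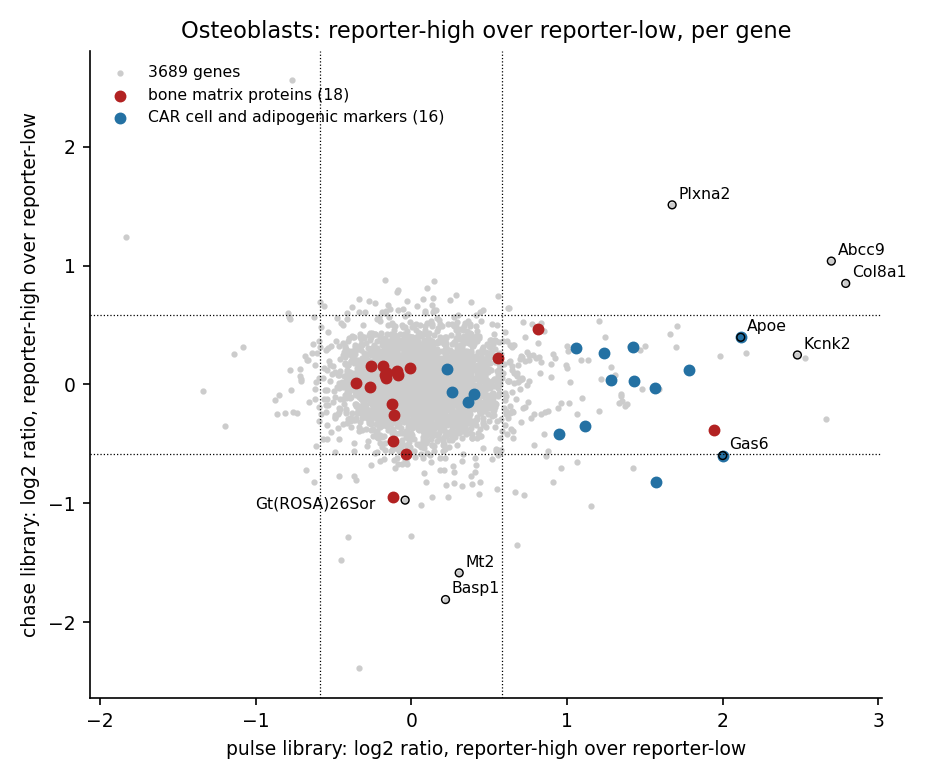
Log2 ratio of reporter-high over reporter-low osteoblasts for each gene measured in both libraries, pulse on the x axis and chase on the y axis; red points are bone matrix proteins, blue points CAR and adipogenic markers, and dotted lines mark 1.5-fold. The blue points spread to the right along the pulse axis, and 2 of 16 lie below the lower line of the chase axis and 0 above the upper one; tdTomato, at 1.58 and 3.79, is left out.

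Few genes followed the reporter in both libraries. Of 3690 genes measured in both, 6 were higher in both (0.163%) and 2 lower in both (0.0542%), and 14 passed the limit in opposite directions (0.379%). One of the 6 was tdTomato, which the split fixes. The others were Abcc9, Col8a1, Plxna2, Ifngr2 and H2-Q7. The 2 genes lower in both, named after their values were seen, were Lcn2, of which 1 cell gave 41% to 80% of the UMIs in each group, and the uncharacterised 2700038G22Rik, at 25.3 against 40.8 CPM in the pulse and 36.2 against 59.8 CPM in the chase.

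Plxna2, a receptor for semaphorins, was at 82.3 CPM on the high and 25.8 CPM on the low pulse side (3.19, 2.46 to 4.15) and at 47.0 and 16.3 CPM in the chase (2.88, 1.93 to 4.40), where 36% of the high side's UMIs came from 1 cell. Abcc9, a subunit of ATP-sensitive potassium channels, was at 49.8 against 7.62 CPM in the pulse and 47.0 against 22.7 CPM in the chase, with 36% and 33% of the high side's UMIs from 1 cell. Col8a1, a short-chain collagen, was at 267 against 38.5 CPM and 55.5 against 30.6 CPM. These 3 genes rested on few cells on at least one side. Ifngr2, a chain of the interferon gamma receptor, was at 47.6 against 30.9 CPM and 38.0 against 24.2 CPM, with at most 6% from 1 cell.

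H2-Q7, a non-classical class I histocompatibility gene, was at 70.7 against 46.2 CPM in the pulse (1.53, 1.20 to 1.95) and 165 against 106 CPM in the chase (1.56, 1.32 to 1.86). It was higher in tdTomato-rich cells of the other types as well, at ratios of 1.15 and 1.17 in CAR cells and 3.03 and 5.23 in blood cells. In blood the tdTomato-rich cells were also the shallower ones. The other genes shared this only in part. Their CAR ratios (pulse, chase) were 0.69 and 0.67 for Abcc9, 1.22 and 0.98 for Col8a1, 1.38 and 1.02 for Plxna2, and 1.16 and 0.93 for Ifngr2. The CAR intervals of Col8a1, Plxna2 and Ifngr2 lay above 1 in the pulse and included 1 in the chase, and those of Abcc9 lay below 1 in both. All CAR ratios lay within 1.5-fold. Ifngr2 was at 0.78 and 0.20 in blood cells, where the rest had few UMIs. At osteocalcin 200 or more the ratio of H2-Q7 was 0.83 (0.51 to 1.3) in the pulse and 1.60 (1.3 to 2.0) in the chase. At that limit 4 genes were higher in both libraries (0.128% of 3137) and 1 lower (0.0319%). They were tdTomato, the neutrophil granule genes Camp and Ngp and glutamine synthetase, Glul, with 2700038G22Rik as the lower one. Abcc9 and Plxna2 fell under the 100-UMI minimum of the pulse comparison there; Abcc9 was at 26.9 against 4.86 CPM in the pulse and 37.9 against 23.2 CPM in the chase, and Plxna2 at 10.4 against 3.47 and 11.8 against 7.93 CPM. Col8a1 had a ratio of 13.1 (8.77 to 20.1) in the pulse and 0.72 (0.38 to 1.36) in the chase, and Ifngr2 of 1.38 (0.94 to 1.99) and 1.51 (0.997 to 2.30).

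Chase osteoblasts differed from pulse osteoblasts on both sides of the reporter split. On the reporter-high side 156 of 3296 genes were higher (4.73%) and 221 lower (6.71%) in the chase, and on the reporter-low side 250 of 5125 were higher (4.88%) and 142 lower (2.77%). On both sides 40 genes were higher (1.22% of 3285), 22 lower (0.67%) and 16 past the limit in opposite directions (0.487%). The libraries differ in harvest time, in the age of the mice, in the sorted share and in their preparation, and these cannot be told apart. Mitochondrial UMIs made up 3.38% and 3.12% of the UMIs on the pulse high and low sides, and 4.13% and 4.19% in the chase. In CAR cells they made up 3.42% and 3.55% (pulse, chase). Their relation to the gene differences was not tested. Col1a1, Col1a2, Sparc and Smpd3 were not past the limit, with ratios between 0.77 and 1.31 on both sides. Spp1 was lower in the chase over all osteoblasts, at 2991 against 4306 CPM. Among cells of osteocalcin 200 or more it was at 937 against 812 CPM. Of 19 bone matrix proteins measured on the reporter-high side, 3 were lower and 0 higher.

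Among genes higher in the chase, Txnip, a glucose-responsive arrestin, was at 136 and 159 CPM on the high and low chase sides and at 52.7 and 46.0 CPM in the pulse (ratios 2.59 and 3.46). Lars2, the mitochondrial leucyl-tRNA synthetase, was at 640 and 548 against 256 and 187 CPM (2.50 and 2.93). H2-Q7 was at 165 and 106 against 70.7 and 46.2 CPM (2.34 and 2.29), and its neighbour H2-Q6 at 65.7 and 47.9 against 30.3 and 16.9 CPM (2.17 and 2.84); the 2 genes are close copies, and reads may be split between them. Nfkbiz, a nuclear regulator of NF-kappaB, was at 54.6 and 48.9 against 16.6 and 23.9 CPM. In each case both chase sides were above both pulse sides. With reporter-high cells taken at 20 or more tdTomato, where the pulse side is the 12 bright cells, most of them low in Col1a1 and rich in CAR RNA, the chase to pulse ratio was below 1 for H2-Q7 (0.48), H2-Q6 (0.31), Slit2 (0.44) and Irf1 (0.94).

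Some of these were shared with other cells of the libraries and some were not. Lars2 had chase to pulse ratios of 2.21 in CAR cells, 2.88 in blood cells and 3.47 in osteocyte-like cells, and Nfkbiz 1.93, 1.33 and 1.69. Fign, a microtubule-severing enzyme, was at 173 and 140 against 59.9 and 66.8 CPM in osteoblasts (2.89 and 2.1), with a ratio of 2.47 in osteocyte-like and 1.32 in CAR cells. Tbx2, a transcription factor, was at 129 and 124 against 71.5 and 72.3 CPM (1.80 and 1.71), with ratios of 1.61 and 1.10 in these cells. Slit2, a guidance ligand, was at 140 and 136 against 80.8 and 71.7 CPM (1.73 and 1.89), with 1.62 in osteocyte-like and 0.85 in CAR cells. Fign, Tbx2 and Slit2 were thus past 1.5-fold in osteoblasts and osteocyte-like cells and within it in CAR cells; the difference between the cell types was not tested.

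Cdh15, a cadherin, was at 88.1 and 90.4 against 40.4 and 34.4 CPM in osteoblasts (2.18 and 2.63). Its ratio was 2.55 in osteocyte-like cells and 6.82 in CAR cells, there from 0.77 CPM in the pulse to 5.26 CPM in the chase. Ier3, an immediate early gene, was at 156 and 153 against 68.6 and 82.6 CPM (2.27 and 1.85), with ratios of 2.32 in CAR, 1.05 in blood and 0.78 in osteocyte-like cells. Irf1, an interferon-responsive transcription factor, was at 62.6 and 51.9 against 26.7 and 23.9 CPM (2.34 and 2.17), with 1.89, 1.39 and 1.63 in these cells. Of 19 immediate early genes measured on the high side 5 were higher and 0 lower (median log2 ratio 0.35), and of 21 on the low side 3 were higher and 0 lower (median 0.24). Of the interferon-stimulated genes only 4 and 5 were measured; 2 were higher and 1 lower on each side.

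Genes lower in the chase included Pdpn and Cd109 of the osteocyte list. Pdpn (podoplanin), an early marker of osteocyte formation, was at 14.3 and 25.7 CPM on the chase sides against 63.5 and 57.3 CPM in the pulse (ratios 0.23 and 0.45), and Cd109 at 23.7 and 40.5 against 52.0 and 72.1 CPM (0.46 and 0.56). Bmp2, a bone morphogenetic protein, was at 21.9 and 23.7 against 51.2 and 59.1 CPM (0.43 and 0.40), and Ninj1, a plasma membrane protein, at 19.2 and 25.7 against 65.7 and 58.1 CPM (0.29 and 0.44). In osteocyte-like cells the ratios were 0.25 for Pdpn, 0.29 for Cd109, 0.26 for Bmp2 and 0.32 for Ninj1, and in CAR cells Bmp2 was at 1.36. Of 11 osteocyte genes measured on the high side 6 were lower and 1 higher (median log2 ratio -0.61), and of 12 on the low side 4 were lower and 0 higher (median -0.37). Dmp1, Phex, Mepe and Sost, which the rule uses, are on this list. Over all osteoblasts Phex was lower in the chase, at 167 against 273 CPM. Dmp1 ran the other way, at 103 against 66.8 CPM, and Mepe and Sost had few UMIs or none.

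Basp1 was at 17.9 and 63.2 against 116 and 99.9 CPM (0.15 and 0.63), and was lower in the chase in CAR cells (0.39) and osteocyte-like cells (0.080) too. Other genes lower on both sides were Htra1, a secreted protease, at 33.5 and 28.2 against 98.9 and 58.7 CPM (0.34 and 0.48), Igfbp7 at 72.4 and 53.9 against 279 and 88.2 CPM (0.26 and 0.61), Col6a3 at 49.6 and 43.0 against 215 and 98.1 CPM (0.23 and 0.44), and Mgp, an inhibitor of calcification, at 9.84 and 7.41 against 158 and 51.1 CPM (0.062 and 0.15). For Mgp 1 cell gave 40% of the UMIs on the pulse high side. Ratios in osteocyte-like and CAR cells were 0.62 and 0.58 for Htra1, 1.12 and 0.75 for Igfbp7, 0.26 and 0.63 for Col6a3, and 0.37 and 2.15 for Mgp. Igfbp7 in osteocyte-like cells and Mgp in CAR cells thus ran the other way. The lists that hold matrix genes did not move one way: of the bone matrix proteins 0 of 19 were higher and 3 lower on the high side and 2 of 21 higher and 1 lower on the low side, and of 17 matrix degradation genes 2 were higher and 6 lower on the high side and 2 higher and 1 lower on the low side. Among cells of osteocalcin 200 or more the low-side ratios were 1.28 for Igfbp7, 1.03 for Mgp and 1.61 for Col6a3, and Htra1 was not past the limit on either side. Of the CAR and adipogenic markers, 11 of 16 were lower and 0 higher in the chase on the reporter-high side (median log2 ratio -0.82), and 5 of 18 were higher and 0 lower on the reporter-low side (median 0.35). At osteocalcin 200 or more these medians were -0.03 and 0.70, and with the split at 2 per 10000 they were 0.03 and -0.06.

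**Figure D5:**
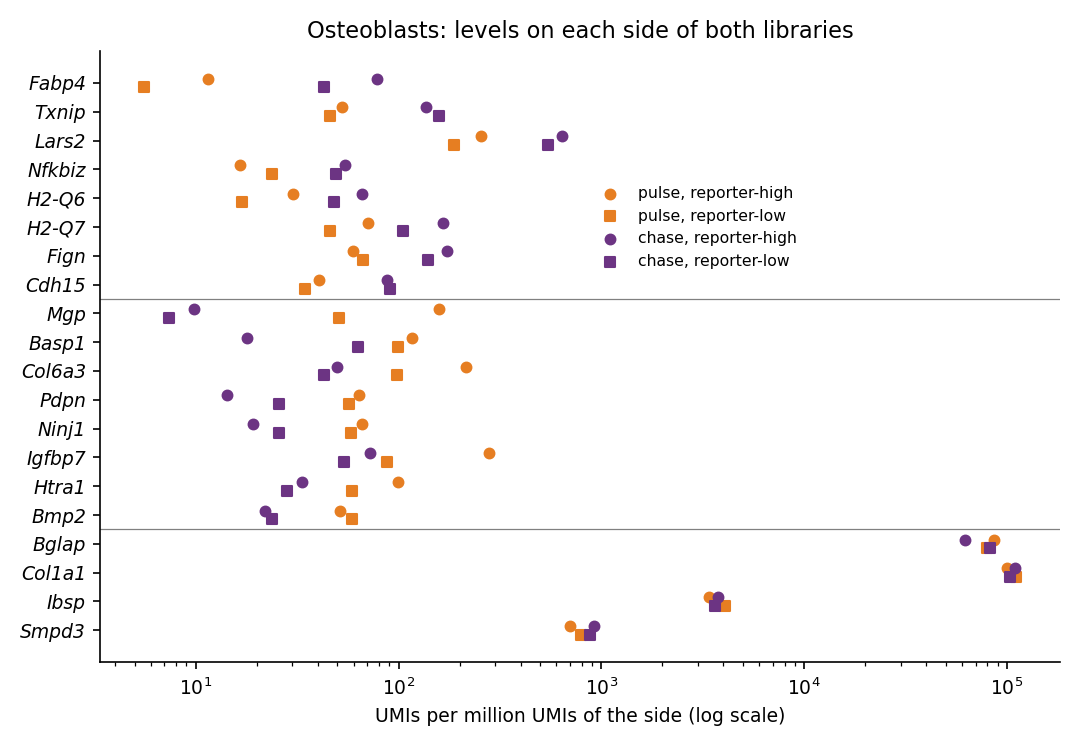
CPM (x axis, log scale) of 20 genes on the reporter-high (circles) and reporter-low (squares) side of the pulse (orange) and chase (purple) libraries. The top 8 genes are higher and the next 8 lower in the chase on both sides; of the bottom 4, Bglap and Ibsp are genes of the rule, and Col1a1 and Smpd3 differ by less than 1.5-fold between the libraries.

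At osteocalcin 200 or more, 206 of 2634 genes were higher (7.82%) and 116 lower (4.4%) on the high side, and 230 of 4461 higher (5.16%) and 131 lower (2.94%) on the low side. On both sides 59 genes were higher (2.25% of 2625) and 17 lower (0.648%). Txnip, Lars2, H2-Q6, H2-Q7, Fign, Cdh15, Tbx2, Slit2, Irf1 and Ier3 were higher on both sides there, and Pdpn, Ninj1, Bmp2 and Cd109 lower.

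RNA of other cells was present at low levels and was uneven between the groups. Neutrophil markers (10 genes, 0 of them without a UMI) summed to between 717 and 1430 CPM over the 4 groups of osteoblasts, against 72298 to 92041 CPM in blood cells, and S100a8 UMIs came to 50% to 86% from 1 cell in each group. Macrophage markers (10 genes, 0 at 0) stood at 157 to 190 CPM and erythroid markers (9 genes, 1 or 2 at 0) at 78.0 to 131 CPM. Lymphocyte markers (10 genes, 2 or 3 at 0) were at 26.2 and 30.3 CPM in the pulse and at 70.7 and 96.1 CPM in the chase, and endothelial markers (10 genes, 0 to 4 at 0) at 11.5 and 12.4 against 53.4 and 88.1 CPM. Igkc, an antibody light chain, was 5.89 and 5.42 times higher in chase osteoblasts and 27.2 times higher in chase CAR cells, and Cd74, of antigen-presenting cells, 2.79 and 2.04 times. These levels moved with the chase to pulse comparison, as did Fabp4 (6.82 and 7.73 times, with 60% and 71% of the chase UMIs from 1 cell), and their part in it was not tested.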

How the data were processed

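The 2 libraries of sorted cells, 1 pulse and 1 chase, were measured by droplet RNA sequencing of 3′ ends. Both matrices were deposited as UMI counts that had not been normalised, with genes in rows and barcodes in columns, per the file headers. The headers name Cell Ranger 6.0.2 and the submitters' processing notes Cell Ranger 2.1.1, with build mm10. Members were found by the rule given in the report, and the members, gene lists and limits were chosen with earlier results of these data known. Counts were summed over each side and scaled to 1000000 UMIs of the side (CPM); ratios have exact conditional 95% intervals, shares Clopper-Pearson intervals and levels Poisson intervals. These cover counting error only, and cells are not replicates, so no test was run. Scripts were tested on simulated data. Genes with at least 100 UMIs over both sides were compared. Named genes were the 12 highest and 12 lowest past the limit in both libraries, or the 8 on both sides for chase against pulse, with at least 30 CPM and a UMI in at least 10% of cells of the higher side, and list members by size; Gt(ROSA)26Sor and Setd5 were added after their values were seen. One gene picked by these naming rules is not reported here. Doublets were sought with Scrublet in scanpy 1.11.5. Python 3.11.15, numpy 2.4.6, scipy 1.17.1, pandas 2.3.3 and matplotlib 3.10.9 were used. Alternatives covered the split, the cell and gene filters, the scaling, thinning and the size limit.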

Additional observations from a re-analysis of the deposited data

Results flagged for a closer look

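Gas6, a ligand of the TAM receptors, stood on opposite sides in the libraries. The ratio of reporter-high to reporter-low osteoblasts was 4.00 in the pulse (202 against 50.5 CPM) and 0.66 in the chase (38.5 against 58.3 CPM). With the split at 2 per 10000 the ratios were 0.84 and 0.80, on the same side in both libraries. The difference between the libraries was not tested, since each is 1 library.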

How the results depend on the processing

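No paired analysis was possible because each group is 1 library. Of the 860 alternative values of 74 named ratios, 634 stayed within the spread set for them, 196 moved and 30 changed direction; the cause was not tested. The share of reporter-high osteoblasts was 77.0% and 73.9% (pulse, chase) with the split at 2 per 10000, 9.43% in the pulse with the split at 10, and 53.8% and 67.4% with cells thinned to 2000 UMIs. In the thinned cells any tdTomato UMI reaches the split.

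The counts below are given without the number of genes measured, which changes with thinning and with the filters on cells and genes. They therefore cannot be read as more or fewer differences. The main comparisons, in the order below, measured 4787, 3719, 3296 and 5125 genes. Genes past the limit between the pulse sides (299) numbered 1783 with the split at 10, 172 under 5% mitochondrial UMIs, 169 at osteocalcin 50 or more, 166 without members with traces of CAR RNA, 81 after thinning, 545 and 121 with gene minimums of 50 and 200 UMIs, and 99 at 2-fold. With 2 alternatives added after seeing the data, tdTomato 20 or more against under 5 and osteocalcin 200 or more, they numbered 1086 and 153. Between the chase sides (124) they numbered 17 after thinning, 275 and 31 with the gene minimums and 21 at 2-fold. Chase against pulse on the high side (377) gave 995 with the split at 10, 71 after thinning, 608 and 166 with the gene minimums, 96 at 2-fold and 681 at tdTomato 20 or more. On the low side (392) it gave 190 with the split at 2, 64 after thinning, 649 and 163 with the gene minimums and 74 at 2-fold. Genes on the same side in both libraries (8) numbered 22 and 43 with the splits at 2 and 10, 3 at osteocalcin 50, 2 after thinning, 17 and 3 with the gene minimums, 3 at 2-fold, 22 at tdTomato 20 or more and 5 at osteocalcin 200.

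With the split at 2, pulse ratios were 0.996 for Col8a1, 0.84 for Gas6, 0.63 for H2-Q7, 0.90 for Ifngr2, 0.83 for Igfbp4, 0.77 for Kcnk2, 0.93 for Lepr, 0.59 for Loxl1, 0.54 for Mgp, 0.41 for Mmp13 and 0.38 for Plxna2. The pulse ratio of H2-Q7 was 0.89 at osteocalcin 50 and 0.83 at 200, and that of Ifngr2 0.90 after thinning. Chase ratios were 0.46, 0.56 and 0.72 for Col8a1 without CAR traces, at tdTomato 20 or more and at osteocalcin 200, and 0.95 for Fabp4 with the split at 10. Chase to pulse ratios on the high side with the split at 10 were 0.55 for H2-Q6, 0.61 for H2-Q7, 1.14 for Ninj1 and 0.94 for Slit2, and at tdTomato 20 or more 0.31 for H2-Q6, 0.48 for H2-Q7, 0.94 for Irf1 and 0.44 for Slit2. On the low side they were 1.61 for Col6a3, 1.28 for Igfbp7 and 1.03 for Mgp at osteocalcin 200, and 1.01 for Igfbp7 at osteocalcin 50. Ratios of Loxl2, Mt1, Mt2 and Basp1 in the chase stayed below 1 under each alternative run, at 0.96 for Loxl2 and 0.95 for Basp1 with the split at 2 and 0.97 for Basp1 after thinning. Depth limits the split of single cells: 27 of 87 pulse reporter-high cells had an interval above the split.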
